A study of Homo sapiens with 6 samples.

Results

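Cancer-testis antigen genes are named for their expression pattern: they are read in the germ cells of the testis, are silent in most other adult tissues and are found again in many tumours. Most of them lie on the X chromosome in clusters of recent duplicates, and methylation of CpG dinucleotides in their promoters is a known part of their silencing. The MAGE-A, MAGE-B and MAGE-C genes follow this pattern, whereas the MAGE-D genes share the MAGE homology domain and are read in many normal tissues. MORC2, the target of the knockdown, is a nuclear ATPase of the microrchidia family that works with the HUSH complex in chromatin silencing.

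The genes described here were all entries of the count table whose symbol starts with MAGEA, MAGEB, MAGEC, MAGED, GAGE, PAGE, XAGE, SSX or CTAG, followed by a digit. The rule found 73 of the 56303 genes of the table, 72 of them on the X chromosome. The exception was SSX2IP on chromosome 1, which encodes a centrosome and cell junction protein named for its binding to SSX2 and belongs to none of the families. MAGEA8-AS1, an antisense RNA gene, also matched the rule. The samples were SW480 cells, a human colorectal adenocarcinoma line, infected with a lentivirus for a nonsilencing hairpin RNA (shCtrl) or for one directed at MORC2 (shMORC2), with 3 libraries of each. The genotype labels were WT for shCtrl and MORC2 knockdown for shMORC2. The study's methods describe stable clonal lines selected with puromycin. The labels name 1 knockdown group and 1 control group, without the number of hairpins or lines behind them. A difference between the lines and an effect of the knockdown therefore cannot be told apart. The methods name replicate experiments, but no label ties a library to a separate culture, and p-values then measure only the spread between these libraries, which may be technical.

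Total counts ran from 42092664 to 43434425 per library. MORC2 had 46.1, 46.4 and 48.8 CPM in the shCtrl libraries and 35.03, 29.3 and 27.2 CPM in the shMORC2 libraries, where CPM is the count scaled to a common library total after TMM normalization. The mean level in shMORC2 was 64.7% of that in shCtrl. This was a called decrease (log2 fold change -0.63, SE 0.10, edgeR adjusted p 0.000216). Of 10 colonic epithelial markers, 9 were tested and 2 were called higher in shMORC2 (4 called with the replicate number as a block), where 39.5% of all genes tested were called (49% with the block). The 2 called without the block were KRT20 and CDX2 (log2 fold change 0.75 and 0.47, edgeR adjusted p 0.00305 and 0.0158). EPCAM, VIL1 and CDH1 lay at 478, 676 and 150 CPM in shCtrl. CDX1 had 9 counts in sum, and CDH17 and GPA33 lay at 0.631 and 0.496 CPM in shCtrl. The level summed over the list, nearly all of it from the keratins KRT8 and KRT18, ran from 18368 to 23755 CPM in shCtrl and from 17723 to 24075 CPM in shMORC2. Leukocyte markers summed to 0.236 to 0.593 CPM in shCtrl and 0.744 to 0.798 CPM in shMORC2. Fibroblast and endothelial markers, of which 1 of 4 tested was called higher (2 called with the block), summed to 27.9 to 29.5 and 33.1 to 34.9 CPM. Of 8 testis germ cell markers, 5 had no count in any library, and the list summed to 0.709 to 1.02 CPM in shCtrl and 0.480 to 0.744 CPM in shMORC2. The part of these lists in the results was not tested.

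The promoters of XAGE1B, MAGEB2 and MAGED2 show how these genes differ around their first listed start. They are the RefSeq windows (GRCh38.p14) from 250 bases before to 50 bases after the first listed start of each gene, 5′ to 3′ on the strand of the gene, with every CpG in capitals. XAGE1B is the called gene that fell and MAGED2 the broadly read MAGE gene that rose. MAGEB2 was not called and had the highest mean shCtrl RPKM outside MAGED and SSX2IP. The windows lie at chrX:52516963-52517262 on the minus strand for XAGE1B, chrX:30215313-30215612 on the plus strand for MAGEB2 and chrX:54807495-54807794 on the plus strand for MAGED2. The XAGE1B window lies inside the gene as counted, which spans 52512077 to 52520803, so its listed start is not the outer end of that span.
XAGE1B: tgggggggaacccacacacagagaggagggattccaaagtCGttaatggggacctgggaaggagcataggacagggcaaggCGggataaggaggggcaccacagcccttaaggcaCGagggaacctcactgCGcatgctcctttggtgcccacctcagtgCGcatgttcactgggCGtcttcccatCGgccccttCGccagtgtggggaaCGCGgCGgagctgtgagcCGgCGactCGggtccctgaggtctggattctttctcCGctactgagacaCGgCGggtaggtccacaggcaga
MAGEB2: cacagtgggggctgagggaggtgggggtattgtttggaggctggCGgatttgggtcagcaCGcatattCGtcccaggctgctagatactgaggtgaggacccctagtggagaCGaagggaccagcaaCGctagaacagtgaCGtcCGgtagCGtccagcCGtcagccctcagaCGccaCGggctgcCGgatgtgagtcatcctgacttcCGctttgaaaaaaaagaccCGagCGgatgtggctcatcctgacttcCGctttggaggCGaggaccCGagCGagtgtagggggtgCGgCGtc
MAGED2: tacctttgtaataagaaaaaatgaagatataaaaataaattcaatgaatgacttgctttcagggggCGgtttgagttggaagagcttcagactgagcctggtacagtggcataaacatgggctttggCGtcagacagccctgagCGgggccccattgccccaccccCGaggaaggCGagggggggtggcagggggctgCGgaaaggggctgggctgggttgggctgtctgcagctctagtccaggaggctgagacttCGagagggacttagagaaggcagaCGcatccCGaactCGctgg

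The XAGE1B window held 17 CpGs, the MAGEB2 window 21 and the MAGED2 window 10. The first listed window of XAGE1A, the other copy of XAGE1B, was identical to it at 300 of 300 positions. RefSeq windows were matched for 57 of the 73 genes. The 52 of them outside MAGED and SSX2IP held a median of 12 CpGs, with a range of 1 to 21, against a median of 14 over 27305 promoters of the same length. The letters CCGGAA or TTCCGG, 1 motif read on both strands that contains the core bound by ETS factors, were found in 3 of these 52 windows, those of MAGEB6, MAGEA3 and MAGEA6, and in 17.6% of all promoters. Other sequences with that core, such as TTCCGC in the MAGEB2 window, were not searched.

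To learn how many of these genes are read in SW480 cells, the counts were first examined without regard to group. Of the 73 genes, 36 had no count in any library and 25 had 1 to 9 counts over all 6 libraries together. The remaining 12, or 16.4%, had at least 10 counts in sum and were taken as detected, against 48.9% of all genes in the table. The 13 GAGE genes shared 2 counts, the 3 CTAG genes 3 counts, the 3 MAGEC genes 2 counts and the 11 SSX genes 22 counts. MAGEA1, MAGEA4, MAGEA10, MAGEC1 and CTAG2, which belong to the families followed as tumour antigens, had no count. A library with 0 counts of a gene allows up to 3 counts, or 0.0676 to 0.0729 CPM depending on the library. This covers counting error only and takes each count as 1 fragment.

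**Figure D1:**
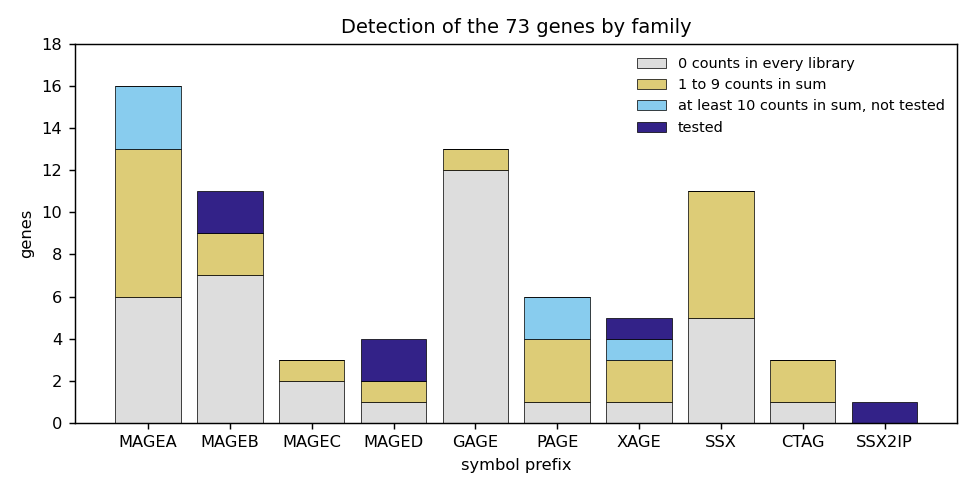
Number of genes (y axis) of each symbol prefix (x axis) by detection over the 6 libraries, with SSX2IP shown apart. Of the 73 genes, 36 had no count, 25 had 1 to 9 counts in sum, 6 had at least 10 counts but were not tested and 6 were tested.

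Sequence identity limits these counts. In GENCODE v44, 68 of the 73 genes were matched, and for 25 of them more than 50% of the 100-base windows of their transcripts also occur in another gene of the set. Of 33 matched genes without a count, 15 were of this kind, among them most GAGE genes, SSX4B and MAGED4B. The sources used here do not state how reads that map to several places were counted, so that silence of such a copy cannot be told apart from reads left out. Among values from 1 to 10 over all genes, 68.8% were even, and among nonzero values of up to 50 in these genes, 78.2% were. A count of 2 may therefore come from a single fragment with both ends counted, and the low counts are less precise than their size implies.

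MAGED2 and MAGED1 stood far above the rest. On the RPKM scale, which divides by exon length and library total and so allows levels of different genes to be compared, MAGED2 had a mean level of 36.8 ± 2.54 in shCtrl, MAGED1 20.6 ± 1.31 and SSX2IP 2.53 ± 0.244 (SD, n = 3). All other detected genes were under 1 RPKM in shCtrl. MAGEB2 at 0.617 ± 0.0815, XAGE1B at 0.490 ± 0.136, XAGE1A at 0.480 ± 0.313 and PAGE2B at 0.405 ± 0.267 RPKM did not differ from each other beyond their spread. PAGE5 had 0.169 ± 0.130 and MAGEB6 0.154 ± 0.113 RPKM. MAGEA2B, MAGEA12 and MAGEA6 had 0.0839 ± 0.113, 0.0484 ± 0.0482 and 0.0418 ± 0.0725 RPKM, SDs about as large as the means. The 68 genes outside MAGED and SSX2IP took 134 to 173 counts of a shCtrl library and 50 to 88 counts of a shMORC2 library. Without the XAGE genes the groups overlapped, with 109, 106 and 87 counts in shCtrl and 50, 88 and 71 in shMORC2.

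To learn which of these genes differ when MORC2 is depleted, edgeR's quasi-likelihood test was run over all genes that passed its filter on low counts. Of the 73 genes, 6 passed: MAGED1, MAGED2, MAGEB2, MAGEB6, XAGE1B and SSX2IP. XAGE1B was called lower in shMORC2 and MAGED2 higher, and the other 4 were not called. XAGE1B passed the filter through its shCtrl counts alone. Its place in the numbers that follow thus depends on the group where it was high. Of all 21005 genes tested, 39.5% were called, 19.9% higher and 19.6% lower, so 2 of 6 is near the background. The median log2 fold change of the 6 was 0.13, beside -0.0056 over all genes tested. The values of the groups did not overlap for 2 of the 6, XAGE1B and MAGED2, beside 50.2% of all genes tested. DESeq2 called the same pair, with 19.3% of all genes called higher and 18.8% lower.

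XAGE1A and XAGE1B are neighbouring copies that encode a small antigen of the XAGE family. In shCtrl, 36, 32 and 20 counts fell on XAGE1B (X chromosome, 52512077 to 52520803, minus strand, GRCh38), and no shMORC2 library held a count of it. XAGE1A (X chromosome, 52495676 to 52500812, plus strand) had 7, 35 and 23 shCtrl counts and likewise none in shMORC2. All 3 shCtrl libraries lay above all 3 shMORC2 libraries for both copies.

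XAGE1B was at 0.688 ± 0.178 CPM in shCtrl (SD, n = 3) and at least 9.82-fold lower in shMORC2, against a floor of 3 counts per library (edgeR adjusted p 5.37e-05). XAGE1A, which did not pass the filter because of its 7 counts in shCtrl replicate 1, was at least 7.36-fold lower by the same floor. All 100-base windows of the XAGE1A transcripts occur in XAGE1B transcripts and 72.5% of those of XAGE1B in XAGE1A, so how the reads were divided between them is uncertain. Summed over both copies, the shCtrl counts were 43, 67 and 43, and all shMORC2 counts were 0. By the same floor the summed level in shMORC2 was at least 17.2-fold lower, a sum chosen after the values were seen (edgeR adjusted p 1.12e-05). XAGE1B kept its call in all 14 alternatives that tested it, with adjusted p from 1.22e-14 to 0.00169. Among them, counts divided by 2, as if each fragment had been counted at both ends, gave an edgeR adjusted p of 0.000109. The fold bounds take each count as 1 fragment and were not recomputed in that way. They would be smaller if both ends had been counted.

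The other XAGE genes had too few counts to compare. XAGE3 had 2, 0 and 2 counts in shCtrl and 0, 0 and 3 in shMORC2, XAGE5 had 2 counts in 1 shCtrl library, and XAGE2 had none.

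MAGE-A genes encode proteins that bind ubiquitin ligases. They were at the edge of detection, and their shCtrl counts came mostly from 1 library. The 16 MAGEA genes together had 50, 21 and 3 counts in shCtrl replicates 1, 2 and 3, and 2, 6 and 0 counts in the shMORC2 libraries. MAGEA2B had 22, 4 and 0 counts against 2, 2 and 0. MAGEA12 had 8, 4 and 0 counts and MAGEA6 had 10, 0 and 0, while shMORC2 had none of either. Their shCtrl and shMORC2 values overlapped at 0, since shCtrl replicate 3 had no count of any of the 3. None of them passed the filter. Without a filter, MAGEA2B was called lower (log2 fold change -2.58, edgeR adjusted p 0.0410) in a fit that called 11.8% of 36613 genes lower, while MAGEA12 and MAGEA6 were not (edgeR adjusted p 0.0551 and 0.0866). Transcripts of MAGEA2B share 82.4% of their windows with MAGEA2, those of MAGEA6 34.1% with MAGEA3, and MAGEA12 overlaps the exons of CSAG4 on the same strand. MAGEA3 alone had 4, 2 and 2 counts in shCtrl and none in shMORC2, too few to be taken as detected. Without a filter it was not called (edgeR adjusted p 0.134). Summed over MAGEA3 and MAGEA6, the counts were 14, 2 and 2 in shCtrl and 0, 0 and 0 in shMORC2, again led by shCtrl replicate 1.

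MAGE-B genes lie on the short arm of the X chromosome, and the 2 detected ones had counts in all 6 libraries. MAGEB2 (X chromosome, 30215560 to 30220089, plus strand) had 38, 40 and 48 counts in shCtrl and 26, 52 and 32 in shMORC2. The groups overlapped (log2 fold change -0.21, SE 0.31, edgeR adjusted p 0.630), and with 1 library left out the value ran from -0.57 to 0.013, the latter without shMORC2 replicate 1. MAGEB6 (X chromosome, 26192440 to 26195646, plus strand) had 2, 18 and 18 counts in shCtrl and 14, 10 and 24 in shMORC2. These groups overlapped as well (log2 fold change 0.31, SE 0.59, edgeR adjusted p 0.707), and the sign turned without shCtrl replicate 1 (-0.21) and without shMORC2 replicate 3 (-0.11). MAGEB18 had 2 counts in shCtrl and 6 in shMORC2 in sum, MAGEB17 had 0 and 5, and the other 7 MAGEB genes had none.

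PAGE genes, also of the X chromosome, encode small proteins related to the GAGE antigens. PAGE5 had 10, 2 and 4 counts in shCtrl and 0, 0 and 2 in shMORC2, and PAGE2B had 4, 15 and 7 against 2, 7 and 3. The PAGE2B values overlapped and the PAGE5 groups met at 2 counts, so that neither difference could be resolved with so few counts. Without a filter, neither PAGE5 (edgeR adjusted p 0.132) nor PAGE2B was called. Over the 33 genes outside MAGED and SSX2IP with any count, the sum over shCtrl was the higher one for 22, the sum over shMORC2 for 7, and 4 were tied. Most of these sums rest on a few counts, and near-identical copies were counted apart. Of the 22, 9 were MAGEA genes, whose shCtrl counts came mostly from replicate 1, and 4 were XAGE genes. The same share over all genes was not computed, so no shift of the set can be read from these numbers.

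**Figure D2:**
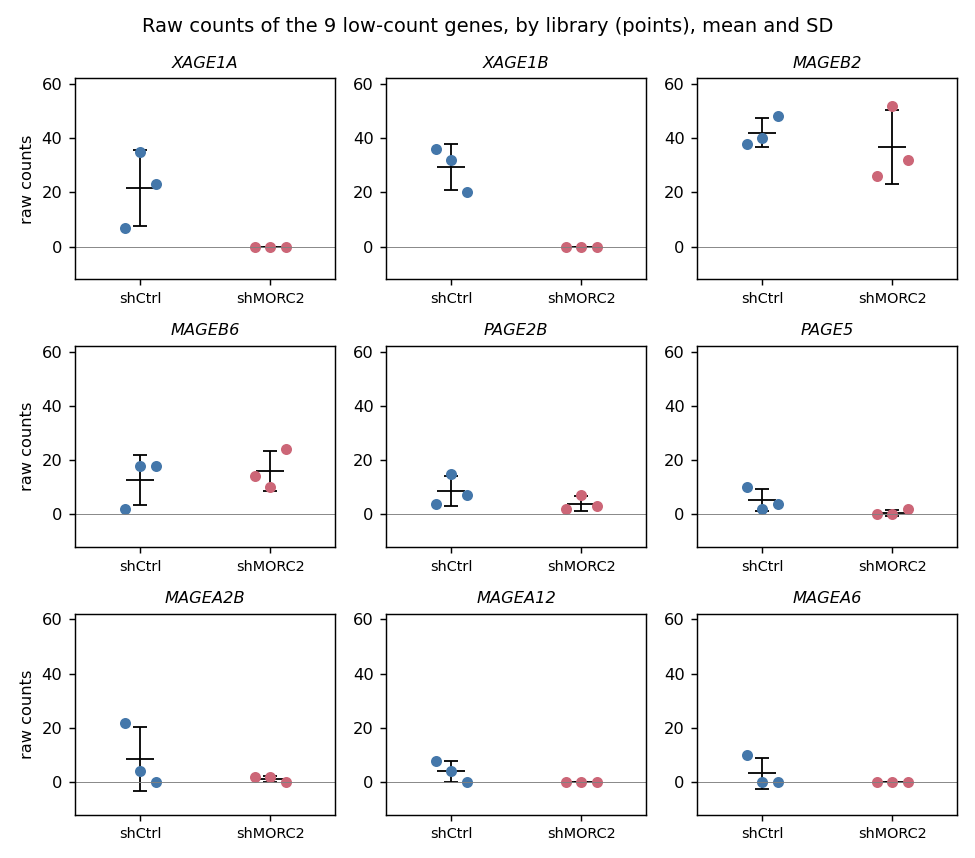
Raw counts (y axis) in the 3 shCtrl and 3 shMORC2 libraries (x axis, points in order of replicate number) for the 9 detected genes outside MAGED and SSX2IP, with the group mean and SD as bars. XAGE1A and XAGE1B have 7 to 36 counts in shCtrl and 0 in every shMORC2 library, MAGEB2 and MAGEB6 overlap between groups, and the MAGEA counts come mostly from shCtrl replicate 1.

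MAGED2, which in the kidney is needed for salt reabsorption before birth, was the gene called higher. MAGED2 (X chromosome, 54807599 to 54816012, plus strand) had 34.2, 39.3 and 36.8 RPKM in the shCtrl libraries and 51.5, 58.6 and 57.4 RPKM in the shMORC2 libraries. All shMORC2 libraries lay above all shCtrl libraries. On the CPM scale the level rose from 108 ± 8.81 to 164.9 ± 14.6 (SD, n = 3 each), or 1.53-fold (log2 fold change 0.61, SE 0.09, edgeR adjusted p 0.000145). In each of 17 alternatives MAGED2 stayed called, between 0.54 and 0.68 on the log2 scale and with adjusted p from 4.88e-11 to 0.00234.

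MAGED1, also called NRAGE, binds the p75 neurotrophin receptor and the ubiquitin ligase PJA1. MAGED1 (X chromosome, 51803007 to 51902357, plus strand) had 118, 132 and 121 CPM in shCtrl and 131, 148 and 147 CPM in shMORC2. The lowest shMORC2 library lay just under the highest shCtrl library. On the RPKM scale, without TMM scaling, the groups did not overlap, with 20.1, 22.1 and 19.6 in shCtrl and 22.2, 24.2 and 24.1 in shMORC2. MAGED1 missed the threshold (log2 fold change 0.20, SE 0.08, edgeR adjusted p 0.0629). With the replicate number as a block it was called (log2 fold change 0.20, edgeR adjusted p 0.00540), which made 2 genes higher, in a fit that called 24.4% of all genes higher and 24.5% lower. MAGED4 and MAGED4B, near-identical copies, had 2 counts between them.

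SSX2IP had 2.80, 2.44 and 2.33 RPKM in shCtrl and 3.25, 2.49 and 2.17 RPKM in shMORC2. The groups overlapped (log2 fold change 0.07, SE 0.12, edgeR adjusted p 0.678).

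**Figure D3:**
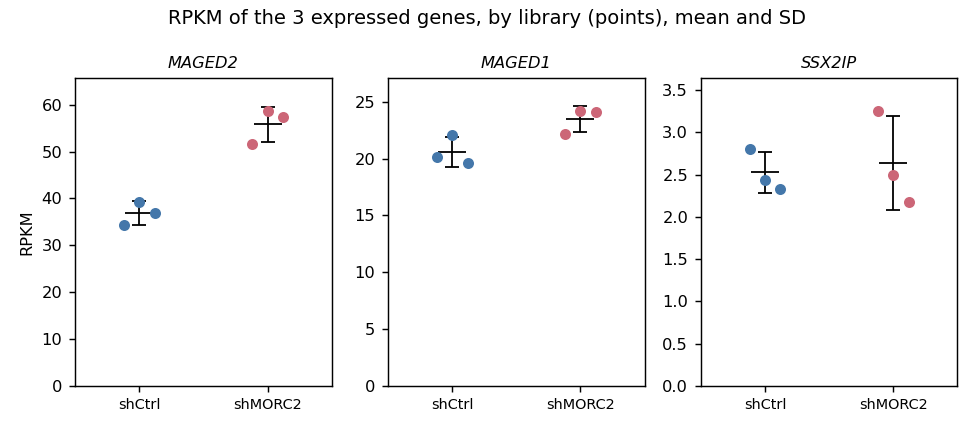
RPKM (y axis, from 0) of MAGED2, MAGED1 and SSX2IP in the 3 shCtrl and 3 shMORC2 libraries (points), with the group mean and SD as bars. MAGED2 rises from 36.8 to 55.8 RPKM on average without overlap, MAGED1 lies at 20.6 and 23.5 RPKM, and SSX2IP overlaps between groups.

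Of the other 674 X chromosome genes tested, 37.1% were called, 23.1% higher and 13.9% lower, beside 39.6% of autosomal genes, 19.8% higher and 19.8% lower. The median log2 fold change of these X chromosome genes was 0.045. With the replicate number as a block 45.4% of them were called, beside 49.0% of autosomal genes.

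Other cancer-testis and germline genes were examined beside these. Of 49 listed, 14 had no count, 17 had at least 10 counts in sum and 12 were tested, with 2 called higher and 1 lower and a median log2 fold change of -0.29. Over all genes tested, 39.5% were called. SPANXB1, an X-linked gene of sperm nuclei, had 34, 40 and 36 counts in shCtrl and 6, 10 and 12 in shMORC2. Every shMORC2 library lay under every shCtrl library (log2 fold change -1.97, SE 0.36, edgeR adjusted p 0.000892). The groups did not overlap for 50.2% of all genes tested. SPANXB1 passed the filter through its shCtrl libraries, so its test depends on the group where it was high. All its counts were even, so each fragment may have been counted at both ends. SPA17, a sperm surface and flagellar protein gene, rose (log2 fold change 0.78, SE 0.15, edgeR adjusted p 0.00110), as did TSGA10, of the sperm tail and centriole (log2 fold change 0.55, SE 0.12, edgeR adjusted p 0.00354). PRAME had 12, 26 and 14 counts in shCtrl and 4, 4 and 26 in shMORC2 and was not called (edgeR adjusted p 0.461). CTCFL, the germline relative of CTCF, had no count. BRDT, a testis bromodomain gene, did not pass the filter and was noticed after its values were seen, with 8, 6 and 8 shCtrl counts and none in shMORC2.

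MAGE proteins bind RING ubiquitin ligases, and the genes of 7 known partners were all tested. Of these, 3 were called higher and 2 lower, where 19.9% of all genes tested were called higher and 19.6% lower. NSMCE1, the ligase subunit of the SMC5/6 complex that pairs with the MAGE protein NSMCE3, rose from 35.01 ± 2.13 to 46.0 ± 2.78 CPM (log2 fold change 0.39, edgeR adjusted p 0.00211). PJA1, the partner of MAGED1, rose (log2 fold change 0.33, edgeR adjusted p 0.0278), and so did LNX1 (log2 fold change 0.24, edgeR adjusted p 0.0300). TRIM31 fell from 6.67 ± 0.708 to 3.83 ± 0.564 CPM (log2 fold change -0.80, edgeR adjusted p 0.000896), and the deubiquitinase USP7 also fell (log2 fold change -0.35, edgeR adjusted p 0.00210). TRIM28, the partner of MAGE-A and MAGE-C2 proteins, was at 144 ± 2.19 and 142 ± 9.15 CPM and was not called (edgeR adjusted p 0.895). Of the other MAGE genes outside the rule, MAGEF1 and NSMCE3 were tested and not called (edgeR adjusted p 0.0911 and 0.159), and with the replicate block MAGEF1 was (edgeR adjusted p 0.0195, log2 fold change -0.17 without the block).

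Genes known to keep germline genes silent were examined last. Of 22 found in the table and tested, 2 were called higher and 7 lower, and the median log2 fold change was -0.029. These 9 of 22 are near the 39.5% called over all genes tested. Of 7 listed members of the Polycomb complex variant that silences germline genes, 2 were called lower and 1 higher, and E2F6, L3MBTL2, RING1 and RNF2 were not called (edgeR adjusted p 0.242, 0.168, 0.322 and 0.474). PCGF6 fell from 13.0 ± 0.146 to 8.25 ± 0.471 CPM (log2 fold change -0.65, edgeR adjusted p 0.000232) and MGA fell too (log2 fold change -0.48, edgeR adjusted p 0.00326), while MAX, the DNA-binding partner of MGA, rose by 0.54 on the log2 scale (edgeR adjusted p 0.000215). SETDB1, a histone methyltransferase that acts with HUSH, and its partner ATF7IP fell, with log2 fold changes of -0.34 and -0.41 (edgeR adjusted p 0.00625 and 0.000964). The maintenance DNA methyltransferase DNMT1 was at 440 ± 27.7 and 447 ± 10.8 CPM and was not called (edgeR adjusted p 0.851). Of the de novo enzymes, DNMT3B fell (log2 fold change -0.34, edgeR adjusted p 0.0102) and DNMT3A rose (log2 fold change 0.34, edgeR adjusted p 0.00317). KDM1A fell as well (log2 fold change -0.29, edgeR adjusted p 0.00873). Of the HUSH genes, MPHOSPH8 fell (log2 fold change -0.24, edgeR adjusted p 0.0145), whereas TASOR, listed under its older symbol FAM208A, and PPHLN1 were not called (log2 fold change -0.19 and -0.044, edgeR adjusted p 0.199 and 0.751). With the replicate block TASOR was called (edgeR adjusted p 0.00941), and 13 genes of the list were called in all, in a fit that called 49% of all genes tested.

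**Figure D4:**
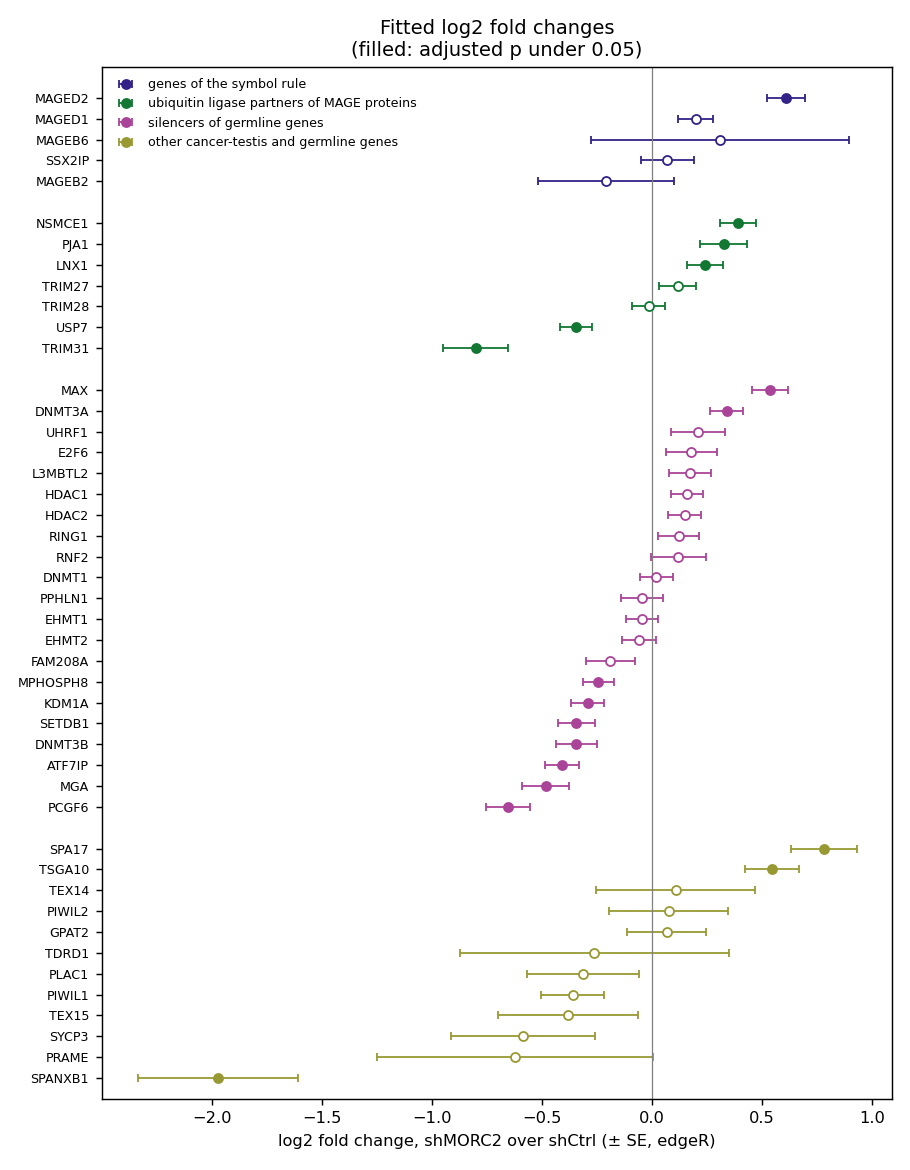
Fitted log2 fold change of shMORC2 over shCtrl with its SE (x axis) for the tested genes of the symbol rule, MAGE partner genes, silencers of germline genes and other cancer-testis and germline genes (y axis), filled where the edgeR adjusted p is under 0.05. XAGE1B is left out because its shMORC2 libraries are all at 0. MAGED2 lies at 0.61, SPANXB1 at -1.97 and TRIM31 at -0.80.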

How the data were processed

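The 6 stranded mRNA libraries carried molecular identifiers. The counts deposited by the authors are raw and listed by gene symbol, beside RPKM values that the authors computed from these counts, exon length and library total. The submitters' processing notes name Trimmomatic 0.36, STAR 2.5.3a, featureCounts, Subread 1.5.1, edgeR 3.12.1 and GRCh38, without their roles. The strand setting, the treatment of reads with several map positions and of identical identifiers, and the annotation release were not given in the sources used here. The deposited tables held 0 columns of samples outside the series. The splicing tables hold the authors' own comparison of unnamed groups and were not used here.

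The test was that of edgeR 4.0.16 under R 4.3.3 (low counts removed with filterByExpr, TMM, quasi-likelihood fit with group as the only term, Benjamini-Hochberg adjustment over all 21005 genes tested, adjusted p under 0.05 called). The SE is the log2 fold change divided by the square root of F. Detection required 10 counts in sum. A fold against a group at 0 is a bound from 3 counts per library, with each count taken as 1 fragment. Replicate libraries were not copies of one another (chi-square per degree of freedom 6.83 to 23.9). Libraries of equal replicate number deviated together (correlations 0.333, 0.165 and 0.149 for replicates 1, 2 and 3). No label states a pairing. The main test left the replicate number out, and the fit with the number as a block was run as an alternative. Alternatives were DESeq2 1.42.0, other scalings and filters, the block, limma 3.58.1 on log2(RPKM + 1) and log2(RPKM + 0.1), and each library left out. The test was first run on simulated data. The genes and lists were chosen with earlier results of these data known. Named were MORC2, every detected gene of the rule, up to 4 called genes per direction and list by adjusted p, and DNMT1, DNMT3B, SETDB1, TASOR, PRAME and CTCFL. Undetected genes, and list members outside this rule (among them MPHOSPH8, PPHLN1, E2F6, KDM1A and the markers), were named after their values were seen.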

Additional observations from a re-analysis of the deposited data

How the results depend on the processing

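The calls of MAGED2 and XAGE1B and the direction and call of MORC2 held in every alternative that tested them. Of 94 values of single genes of the rule under alternatives, 87 kept direction and side of the threshold, 3 (all MAGED1) gained a call and 4 changed sign. MAGEB6 ran from -0.21 to 0.67 over the fits with 1 library left out and turned to -0.21 without shCtrl replicate 1 and -0.11 without shMORC2 replicate 3. Without shMORC2 replicate 1, MAGEB2 was at 0.013 (range -0.57 to 0.013) and SSX2IP at -0.084 (range -0.084 to 0.19), and MAGED1 was called at 0.26 (range 0.17 to 0.26). The number of genes called higher was 2 with the replicate block and 2 with a CPM of at least 1 in 3 libraries, MAGED1 being added, and 1 to 2 with a library left out. The number called lower was 3 without a filter, 2 on log2(RPKM + 0.1), 0 with a CPM of at least 1 in 3 libraries and 0 on log2(RPKM + 1), where XAGE1B was not tested, and 1 to 2 with a library left out, XAGE1A being added. The median of the genes tested was -1.18 over 37 genes without a filter, 0.21 with a CPM of at least 1, 0.18 on log2(RPKM + 1), -0.089 on log2(RPKM + 0.1) and -0.21 to 0.15 with a library left out. Detected genes numbered 19 with at least 3 counts in any library and 37 with at least 1. With the block, 23 in place of 17 genes of the other lists were called, PIWIL1 among them (edgeR adjusted p 0.0456). Summing near-identical copies and halving the counts were chosen after seeing the data. Depth limits every gene under about 10 counts, and counts of 0 do not show absence.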
